A study of Mus musculus with 6 samples.

Results

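The complement group described here holds 9 genes, chosen by their names and not by their values: the C1q chains C1qa, C1qb and C1qc, the components C3 and C4b, the receptors C3ar1 and C5ar1, and the inhibitors Serping1 and Cd59a. All 9 had a row, each under a single Ensembl identifier, in a table of 16060 rows. RNA of the hippocampus (HIPP) came from 3 Control and 3 MA mice, with 1 library per mouse. All were adult male C57BL/6 mice without a genetic modification named in the sources. The Control mice received saline and the MA mice methamphetamine (MA) by intraperitoneal injection, at 5, 10 and 15 mg/kg in weeks 1, 2 and 3. Behavioral tests followed on day 22 and tissue was taken right after them. The comparison asks how repeated MA, a model of MA-induced anxiety-like behavior, goes with gene expression in HIPP. The group labels were looked at through 4 immediate early genes that the study had picked for qPCR, Fos, Egr1, Arc and Nr4a1, a class of genes that neuronal activity and psychostimulants are known to induce. All 4 were lower in every library labelled MA than in every library labelled Control, by 1.61, 1.46, 1.80 and 1.45 in size on the log2 scale, and all 4 passed the test (limma adjusted p = 0.0315, 0.0181, 0.0181 and 0.0244). The paper reports the same genes as upregulated by MA, both in its RNA-seq and by qPCR. The direction in the columns as labelled is thus the opposite of the published one. Whether the columns carry the right labels is therefore in doubt and cannot be settled from the table. Each direction below holds for the libraries as labelled, and would turn if the labels were exchanged.

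Complement is a cascade of blood and tissue proteins that tags surfaces for removal and can open pores in membranes. C1q binds a surface and starts the classical pathway, C4 and C3 are then cleaved and attached to it, and the fragments C3a and C5a signal through the receptors C3ar1 and C5ar1. In the brain, C1q comes mainly from microglia, and C1q and C3 are known for tagging synapses that microglia then remove. Serping1 encodes the C1 inhibitor, which stops the proteases bound to C1q, and Cd59a encodes a membrane-anchored protein that keeps the terminal proteins from assembling a pore.

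None of the 9 genes passed an adjusted p-value of 0.05 between the groups. The C1q genes were the most abundant of the group and the group means of each chain differed by at most 0.09 on the log2 scale. Cd59a had the largest difference of the 9. Its mean was 0.86 higher in the libraries labelled MA, which is a ratio of 1.92 between back-transformed means, and every MA library lay above every Control library. C5ar1 was lower in every MA library than in every Control library, at a level too low for the main test. C3, C4b, C3ar1 and Serping1 had overlapping groups.

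Promoter windows of 250 bases before the annotated start were found in RefSeq (GRCm38.p6) for 6 of the 9 genes: C1qb, C1qc, C3, C3ar1, C5ar1 and Cd59a. The windows of the neighbours C1qb and C1qc are shown because their levels lay close together in each library, and that of Cd59a because its difference was the largest. Capitals mark either of 2 motifs, picked after the sequences were read. GAGGAA is the core bound by PU.1, a transcription factor of microglia and macrophages, and its other strand reads TTCCTC. CCACACCC (GGGTGTGG on the other strand) is a CACCC box, which Klf factors bind. The C1qb window lies at chr4:136886201-136886450 on the minus strand, the C1qc window at chr4:136892915-136893164 on the minus strand, and the Cd59a window at chr2:104095551-104095800 on the plus strand. Each is written 5′ to 3′ on the strand of its gene.
C1qb: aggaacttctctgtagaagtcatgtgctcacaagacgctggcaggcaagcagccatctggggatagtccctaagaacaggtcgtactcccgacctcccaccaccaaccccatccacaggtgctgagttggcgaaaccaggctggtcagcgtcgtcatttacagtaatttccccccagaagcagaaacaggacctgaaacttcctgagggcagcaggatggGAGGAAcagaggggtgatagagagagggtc
C1qc: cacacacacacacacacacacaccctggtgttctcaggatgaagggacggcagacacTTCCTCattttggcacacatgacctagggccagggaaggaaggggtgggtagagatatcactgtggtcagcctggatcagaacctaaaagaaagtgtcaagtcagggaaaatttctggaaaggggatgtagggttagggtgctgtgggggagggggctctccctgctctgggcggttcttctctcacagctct
Cd59a: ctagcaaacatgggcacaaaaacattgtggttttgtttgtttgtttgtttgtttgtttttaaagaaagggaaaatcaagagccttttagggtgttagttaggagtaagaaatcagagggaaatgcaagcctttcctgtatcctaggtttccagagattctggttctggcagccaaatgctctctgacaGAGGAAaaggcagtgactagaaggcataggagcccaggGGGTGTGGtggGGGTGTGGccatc

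The PU.1 core began 30 bases before the start of C1qb, 193 before that of C1qc and 62 before that of Cd59a, counted from the RefSeq starts. The GENCODE starts used for the locations below differ: for C1qc 151 bases of the window lie inside the GENCODE gene and the core is 42 bases before that start, for C1qb it is 43 bases before, and for Cd59a the starts are the same. It was found in 3 of the 6 windows, and in 23.3% of 32851 windows of the same length over all genes. The CACCC box stood at 24 and at 13 bases before the start of Cd59a, in none of the other 5 windows, and in 3.2% of all windows. These matches describe letters only.

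The values in the table are named as RPKM, that is, per length of the gene, but the scale is logarithmic and is taken as log2 of the value plus 1. They had been brought to a common distribution between libraries before deposit. The table carries no read counts, and the depth behind each value is unknown. The test was limma over 13321 genes that reached 0.5 after back-transformation (0.585 on the log2 scale) in 3 or more of the libraries. Of these, 35 (0.263%) had an adjusted p-value under 0.05 and 10.4% an unadjusted p-value under 0.05. The library labelled MA replicate 3 stood apart by the lowest sample quality weight (0.194, against 0.937 to 2.45 for the others). It listed no gene at 0, while the others listed between 259 and 437. However, 397 of its genes shared its lowest value, 0.000206, so the absence of zeros does not set it apart. All 6 markers of hippocampal neurons and all 15 of microglia passed the filter on low values, so both were present as the tissue label implies. Markers of choroid plexus, the tissue that makes cerebrospinal fluid, and of blood differed between the groups. All 9 choroid plexus markers and all 5 blood markers were higher in every MA library than in every Control library, with median log2 differences of 1.66 and 1.06, and 4 and 3 of them passed the adjusted threshold (limma).

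The genes of the C1q chains lie side by side on chromosome 4 of GRCm38, within 18.7 kb from 136880129 to 136898803, all on the minus strand and each with 3 exons. Their products join in equal numbers in the C1q molecule. C1qa (ENSMUSG00000036887) was at 6.01, 6.20 and 6.10 on the log2 scale in Control replicates 1, 2 and 3, and at 6.16, 6.18 and 6.22 in MA replicates 1, 2 and 3. Control replicate 2 lay between MA replicates 2 and 3, so the groups overlapped. The mean level was 6.10 ± 0.095 in Control and 6.19 ± 0.030 in MA (SD, n = 3 each). The difference was 0.09 (95% interval -0.10 to 0.27, limma adjusted p = 0.751), so this fit did not detect a difference and leaves those above 0.27 outside its interval. C1qa stood at the 92.7th percentile of all rows by mean level.

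C1qb (ENSMUSG00000036905) was at 5.70, 5.90 and 5.73 in the Control libraries and at 5.84, 5.90 and 5.82 in MA (log2 scale). C1qc (ENSMUSG00000036896) was at 5.57, 5.73 and 5.61 in Control and at 5.71, 5.74 and 5.66 in MA. In both genes, Control replicates 1 and 3 lay below all MA libraries, and Control replicate 2 lay among them. The differences were 0.08 for C1qb (95% interval -0.12 to 0.27, limma adjusted p = 0.807) and 0.06 for C1qc (95% interval -0.12 to 0.25, limma adjusted p = 0.843). An exact two-sided permutation test of 3 libraries against 3, which cannot give less than 0.1, gave p = 0.3 for each chain.

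The chains kept a fixed order within each library. The level of C1qa exceeded that of C1qb by 0.28 to 0.40 on the log2 scale in 6 of 6 libraries, and C1qb exceeded C1qc by 0.12 to 0.17 in 6 of 6. The ranges of C1qb and C1qc nevertheless overlapped between libraries, since the libraries differed from each other by more than that gap. The gap between C1qa and C1qc was 0.44, 0.47 and 0.49 in Control and 0.46, 0.45 and 0.57 in MA, highest in MA replicate 3.

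**Figure D1:**
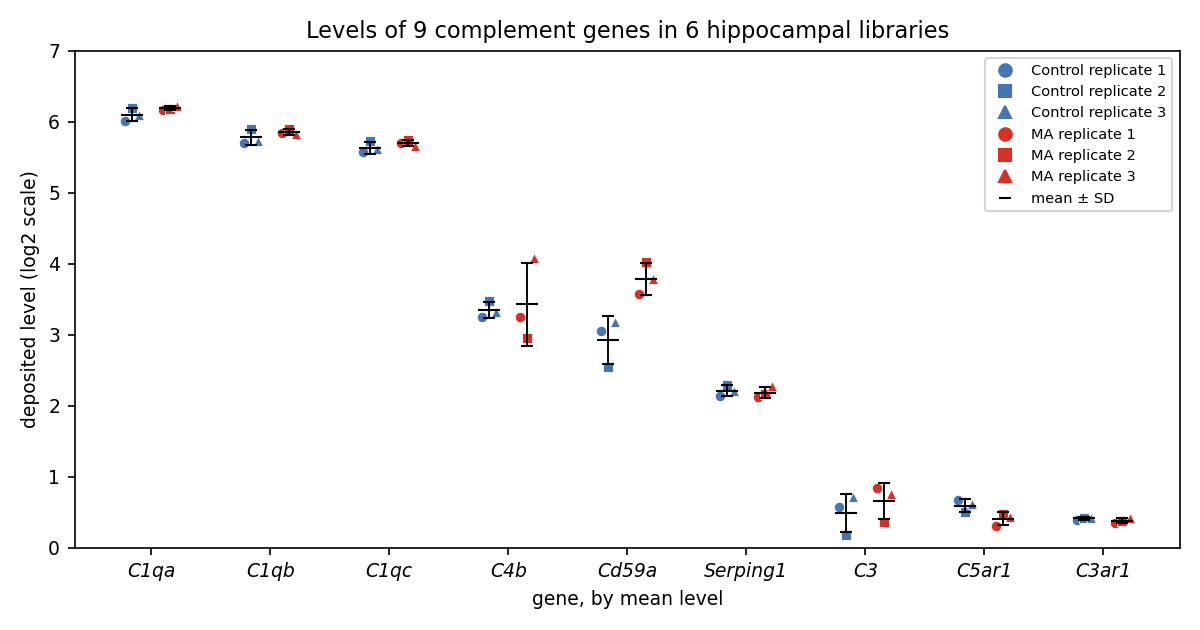
Deposited level (log2 scale) of each of the 9 complement genes in the 3 Control libraries (blue) and 3 MA libraries (red), ordered by mean level; symbols give the replicate and black bars the mean ± SD. The C1q genes sit between 5.57 and 6.22, C3, C5ar1 and C3ar1 below 0.85, and Cd59a is the gene whose MA points all lie above its Control points.

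C1q was then set against other transcripts of the cells that make it. The mean of the C1q genes was 5.84 ± 0.094 in Control and 5.91 ± 0.021 in MA (SD, n = 3 each, log2 scale). The mean of 15 microglia markers, among them the receptors Cx3cr1, P2ry12 and Csf1r and the surface protein Tmem119, was 3.65 ± 0.036 in Control and 3.55 ± 0.026 in MA. Of these markers, 11 were lower and 4 higher in MA, and none reached an unadjusted p-value of 0.05. The summed back-transformed level of the list was 254.1 to 270 in Control and 239 to 254.4 in MA, so the groups overlapped, with no marker at 0.

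The level of C1q above the microglia markers was 2.13, 2.25 and 2.18 in Control replicates 1, 2 and 3, and 2.33, 2.42 and 2.36 in MA replicates 1, 2 and 3, as log2 differences. Every MA library lay above every Control library in this measure, which is taken against the mean of the markers only. The mean was 0.18 higher in MA, against SDs of 0.060 and 0.044, and the exact two-sided permutation test gave p = 0.1, the smallest that 3 against 3 allow. The shift was larger than the SD within either group. The mean of the markers alone was also lower in every MA library (exact permutation p = 0.1), while that of C1q overlapped (p = 0.4, exact). The median of the markers did overlap. It was 3.64, 3.71 and 3.55 in Control replicates 1, 2 and 3, and 3.64, 3.55 and 3.58 in MA replicates 1, 2 and 3. In bulk tissue, fewer cells of a type and less RNA per cell cannot be told apart. The markers of perivascular macrophages, which also make C1q, had a median log2 difference of -0.08 over 4 tested genes. The summed level of all 7 listed markers was 6.00 to 7.21 in Control and 5.75 to 6.86 in MA. Among those below the filter, Ms4a7 was lower in every MA library (-0.42), Cd163 was higher in mean (0.18) and F13a1 differed by -0.01.

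**Figure D2:**
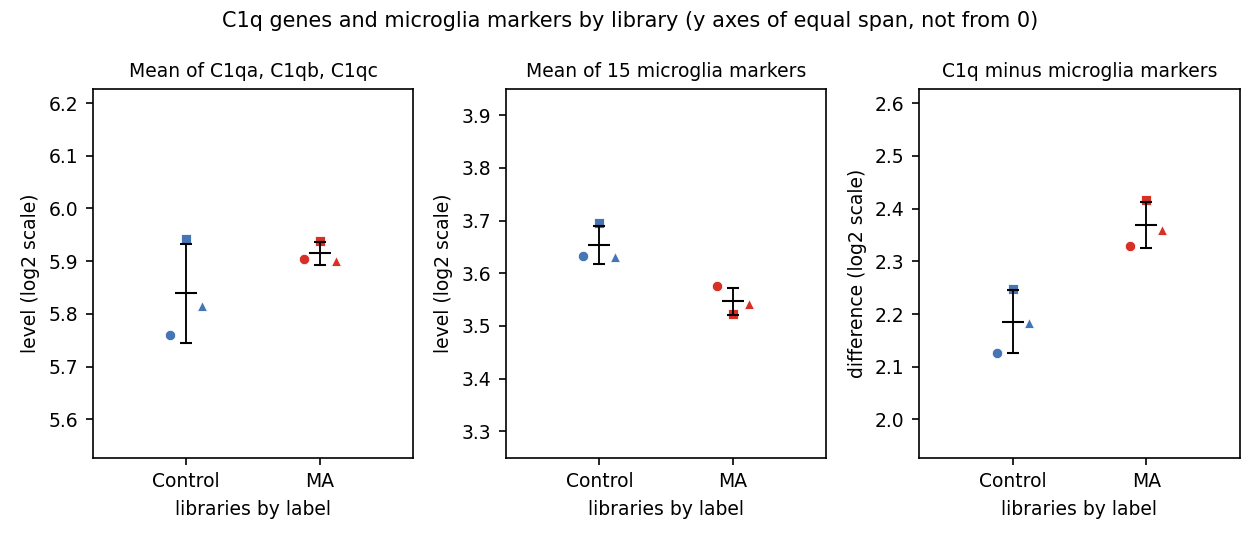
Per-library mean level of the C1q genes, mean level of 15 microglia markers and their difference (log2 scale), in Control (blue) and MA (red) libraries; symbols give the replicate (circle 1, square 2, triangle 3), bars the mean ± SD, and the y axes have equal spans and do not start at 0. C1q overlaps between the groups, whereas the difference is 2.13 to 2.25 in Control and 2.33 to 2.42 in MA.

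C4b (ENSMUSG00000073418), on chromosome 17 from 34728380 to 34743882, encodes C4, which is cleaved by the C1 complex and builds the classical convertase. Its level was 3.25, 3.47 and 3.32 in the Control libraries and 3.25, 2.96 and 4.08 in MA (log2 scale). MA replicate 3 was the highest of the 6 and MA replicate 2 the lowest, so the spread within MA (SD 0.58) was larger than that within Control (SD 0.11). The difference of 0.08 (95% interval -0.54 to 0.70, limma adjusted p = 0.947) turned to -0.25 without MA replicate 3. C4b is uncertain for another reason, as 35.2% of the 50-base stretches of its longest transcript are also found in transcripts of its neighbour C4a, and how the study counted reads that match both is not given in the sources used here. C4a itself was at 1.25 ± 0.47 in Control and 1.30 ± 0.43 in MA.

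C3 (ENSMUSG00000024164), on chromosome 17 from 57203970 to 57228136, encodes the component on which all pathways converge. It was near the floor of the table, at 0.58, 0.18 and 0.71 in Control and at 0.84, 0.37 and 0.76 in MA. It passed the filter through exactly 3 libraries, Control replicate 3 and MA replicates 1 and 3. Replicate 2 was the lowest in each group, and the groups overlapped. The difference was 0.17 (95% interval -0.27 to 0.60, limma adjusted p = 0.821), and 0.01 without Control replicate 2.

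The receptors for C3a and C5a, found on microglia and other myeloid cells, were the lowest members together with C3 and did not pass the filter. C5ar1 (ENSMUSG00000049130), on chromosome 7 from 16246743 to 16259540, was at 0.67, 0.50 and 0.62 in the Control libraries and at 0.31, 0.48 and 0.44 in the MA libraries. The highest MA library and the lowest Control library were 0.48 and 0.50, so the groups were separate by a narrow gap. In a fit of all 16060 rows with no filter, C5ar1 had a difference of -0.19 (95% interval -0.37 to -0.0048), with an unadjusted p of 0.0456 and a limma adjusted p of 0.489. C3ar1 (ENSMUSG00000040552), on chromosome 6 from 122847138 to 122856161, lay between 0.39 and 0.43 in Control and between 0.35 and 0.41 in MA, a difference of -0.03 with overlapping groups.

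Serping1 (ENSMUSG00000023224), on chromosome 2 from 84765387 to 84775444, had levels of 2.14, 2.29 and 2.21 in Control and 2.12, 2.17 and 2.27 in MA. The groups covered nearly the same range. The difference was -0.03 (95% interval -0.26 to 0.20, limma adjusted p = 0.948).

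Cd59a (ENSMUSG00000032679) is a gene of chromosome 2 (GRCm38, plus strand, 104095801 to 104115354) and has a paralog, Cd59b. Its level was 3.05, 2.54 and 3.18 on the log2 scale in Control replicates 1, 2 and 3, and 3.57, 4.02 and 3.78 in MA replicates 1, 2 and 3. The lowest MA library was thus above the highest Control library. The means were 2.93 ± 0.34 and 3.79 ± 0.23 (SD, n = 3 each). The difference of 0.86 had a standard error of 0.19 and a 95% interval of 0.42 to 1.31. Its unadjusted p was 0.00231 and its adjusted p over all 13321 genes was 0.202 (limma), so it did not pass the threshold, and the exact two-sided permutation test gave 0.1, the smallest p possible. With limma's sample quality weights, which give MA replicate 3 little weight, the difference was 1.03 and the adjusted p 0.0337, the single setting in which Cd59a passed (range over all alternatives 0.0337 to 0.544). Without Control replicate 2, the lowest library, the difference was 0.67.

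The paralog did not follow Cd59a. Cd59b was at 1.42, 1.58 and 2.34 in Control and at 1.49, 1.81 and 1.98 in MA, a difference of -0.02 (limma adjusted p = 0.987). Of the 50-base stretches of the longest Cd59a transcript, 3.98% are shared with Cd59b.

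Cd59a is known from red blood cells and vessels as well as from brain, and some marker lists with a positive median difference are given for that reason. The 5 blood markers, globins and Alas2, had a median level of 8.48, 8.87 and 8.76 in Control replicates 1, 2 and 3 and 9.98, 9.66 and 9.84 in MA. Their summed back-transformed level was 1599 to 2024 in Control and 3319 to 4378 in MA. The 9 choroid plexus markers had a median of 1.24, 1.17 and 1.48 in Control and 2.61, 2.77 and 3.11 in MA. Their summed level was 67.2 to 423 in Control and 1783 to 5088 in MA, with no marker of either list at 0. Most of the choroid plexus sum was Ttr, with a back-transformed mean of 211 in Control and 3010 in MA. The 8 endothelial markers all had higher means in MA, by between 0.01 and 0.77, with a summed level of 151 to 172 in Control and 166 to 207 in MA, and 2 reached an unadjusted p-value of 0.05. Their median by library overlapped, at 2.77, 2.96 and 3.01 in Control replicates 1, 2 and 3 and 3.41, 3.17 and 2.57 in MA. The median difference of this list was 0.10, and -0.03 without MA replicate 1. Among the MA libraries, Cd59a was highest in MA replicate 2, the blood median in MA replicate 1 and the choroid plexus median in MA replicate 3. The 9 fibroblast and mural markers had a median difference of 0.16, with a summed level of 69.2 to 84.9 in Control and 122 to 133 in MA. None was called, 2 had an unadjusted p-value under 0.05 (Dcn, 1.31 higher, and Igf2, 1.26 higher), and 3 were higher in every MA library. The higher sum came mostly from Igf2 (back-transformed mean 25.8 in Control and 64.6 in MA) and Dcn (6.67 and 18.7). The other markers of this list had log2 differences of -0.02 (Rgs5) to 0.21 (Slc6a13). A minimum mean of 5 left only 4 of these 9 markers (Dcn, Igf2, Rgs5 and Acta2), and their median difference was 0.68. The part of these cells in the Cd59a result was not tested.

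Counted over the group, 1 of the 7 tested members (Cd59a) had an unadjusted p-value under 0.05, against 10.4% of all tested genes. The MA libraries were all above the Control libraries in 1 of the 9 (Cd59a), against 7.32% of all rows, and all below in 1 of the 9 (C5ar1), against 9.37% of all rows. Counts this close to the share over all genes are no result about the group as a whole. The median difference of the 7 tested members was 0.08, with 6 higher, among them the C1q chains, and 1 lower in MA. C3ar1 and C5ar1, which were not tested, were lower as well. The median over all tested genes was -0.01, with 6294 higher and 7021 lower.

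By level, the order over all 6 libraries was C1qa, C1qb, C1qc, C4b, Cd59a, Serping1, C3, C5ar1 and C3ar1. In Control, C4b and Cd59a did not overlap (lowest C4b 3.25, highest Cd59a 3.18), while in MA Cd59a lay within the range of C4b. Serping1 was below Cd59a and above C3 in each library. C3, C5ar1 and C3ar1 had overlapping ranges and cannot be ordered.

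Of 57 other complement genes, 42 were in the table and 26 passed the filter. None of the 26 passed the adjusted threshold, 3 had an unadjusted p-value under 0.05 (1 higher, 2 lower in MA), and the median difference was -0.02. Over all tested genes 10.4% had such a p-value, so these 3 are no result about the list. The most abundant were Clu (clusterin, which binds terminal complexes) at 8.94 ± 0.031 in Control and 8.92 ± 0.11 in MA, Vtn (vitronectin, with a like role) at 5.61 ± 0.098 and 5.60 ± 0.25, C1qbp (a mitochondrial protein that can bind C1q) at 6.09 ± 0.062 and 5.96 ± 0.36, and the neuronal membrane proteins Sez6l2 at 6.97 ± 0.13 and 7.01 ± 0.21 and Sez6l at 5.60 ± 0.11 and 5.52 ± 0.13 (SD, n = 3 each). Their differences were between -0.12 and 0.04, each smaller than the larger of its group SDs.

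Those 3 genes and a few regulators are given by library. Cd55, decay-accelerating factor, was at 1.37, 1.38 and 1.33 in the Control libraries and at 1.73, 1.83 and 1.85 in the MA libraries. The groups were separate by more than their spread, with a difference of 0.44 (standard error 0.098, unadjusted p = 0.00238, limma adjusted p = 0.203). Cd46, a cofactor for the cleavage of C3b and C4b, was at 2.34, 2.49 and 2.44 in Control and at 1.85, 1.83 and 2.25 in MA. All MA libraries were lower, MA replicate 3 least so, with a difference of -0.44 (limma adjusted p = 0.344, or 0.0414 without MA replicate 3, with a range of 0.0234 to 0.726 over the alternatives). Cr1l (Crry), the main such regulator of rodent cells, was chosen after its values were seen. It was at 3.31, 3.15 and 3.25 in Control and at 3.08, 3.08 and 2.91 in MA, a difference of -0.21 (limma adjusted p = 0.518).

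Cd93, an endothelial and myeloid surface protein once taken for a C1q receptor, was at 1.22 ± 0.078 in Control and 0.87 ± 0.14 in MA, a difference of -0.34 (limma adjusted p = 0.383). Cfp, properdin, which stabilises the alternative convertase, was also chosen after its values were seen. It was between 2.92 and 3.18 in Control and at 2.04, 2.17 and 3.07 in MA, so that MA replicate 3 lay among the Control libraries. Its difference of -0.61 had a limma adjusted p of 0.478, and it was -0.93 with an adjusted p of 0.0274 without MA replicate 3, 1 of 2 alternatives in which it passed. No marker of astrocytes (9 tested, median difference -0.09), oligodendrocytes (6, -0.13), neurons (6, -0.02), hippocampal neurons (6, -0.15) or neutrophils and lymphocytes (2, 0.33) was called. All 6 hippocampal neuron markers were nevertheless lower in MA, with a summed level of 191 to 240 in Control and 176 to 179 in MA. Of these 6, 2 had an unadjusted limma p-value under 0.05 (Neurod6, -0.43, and Wfs1, -0.30), against 10.4% of all tested genes. No direction was common to the regulators, since Cd59a and Cd55 were higher and Cd46, Cr1l and Cfp lower in the MA means.

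**Figure D3:**
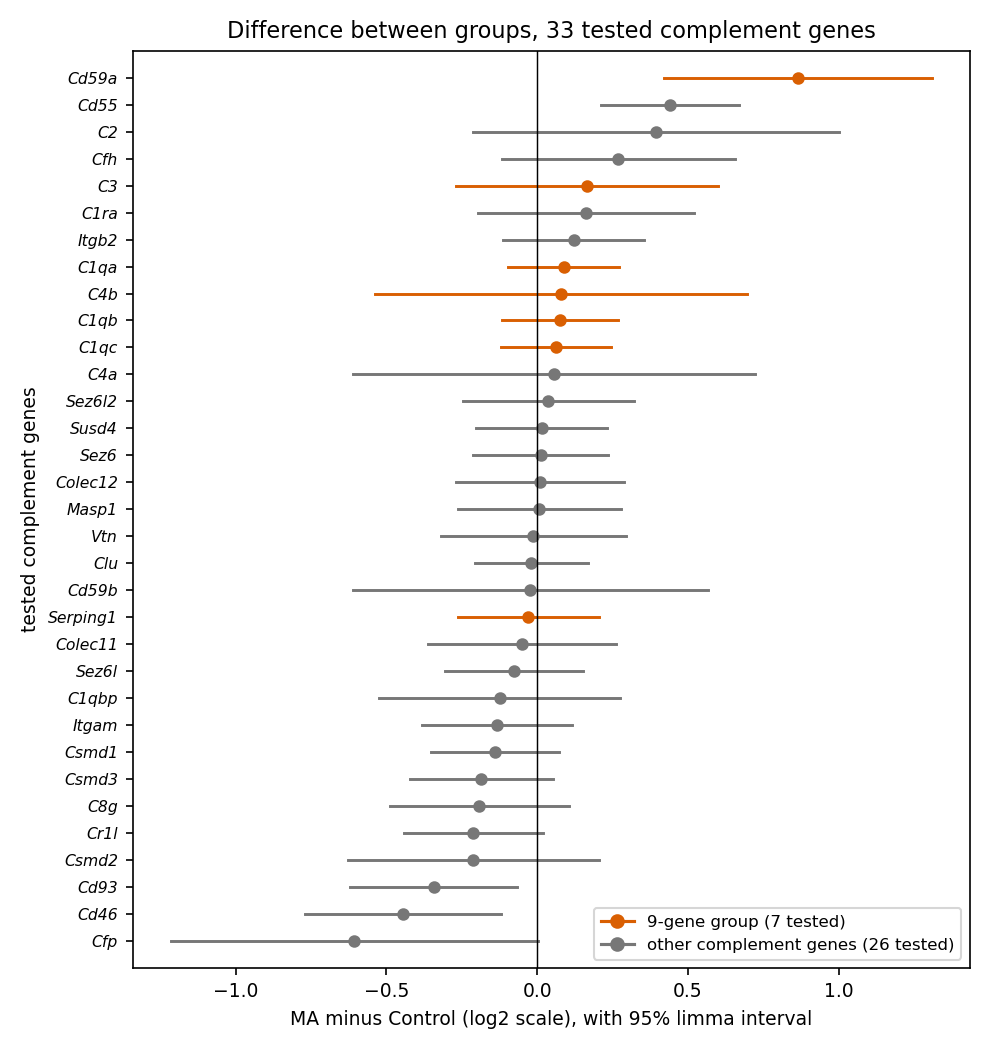
Difference of the group means, MA minus Control (log2 scale), with the 95% interval of limma, for the 7 tested members (orange) and 26 other tested complement genes (grey). The intervals of Cd59a, Cd55, Cd93 and Cd46 leave out 0 before adjustment, and those of the C1q genes lie between -0.12 and 0.27.

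**Figure D4:**
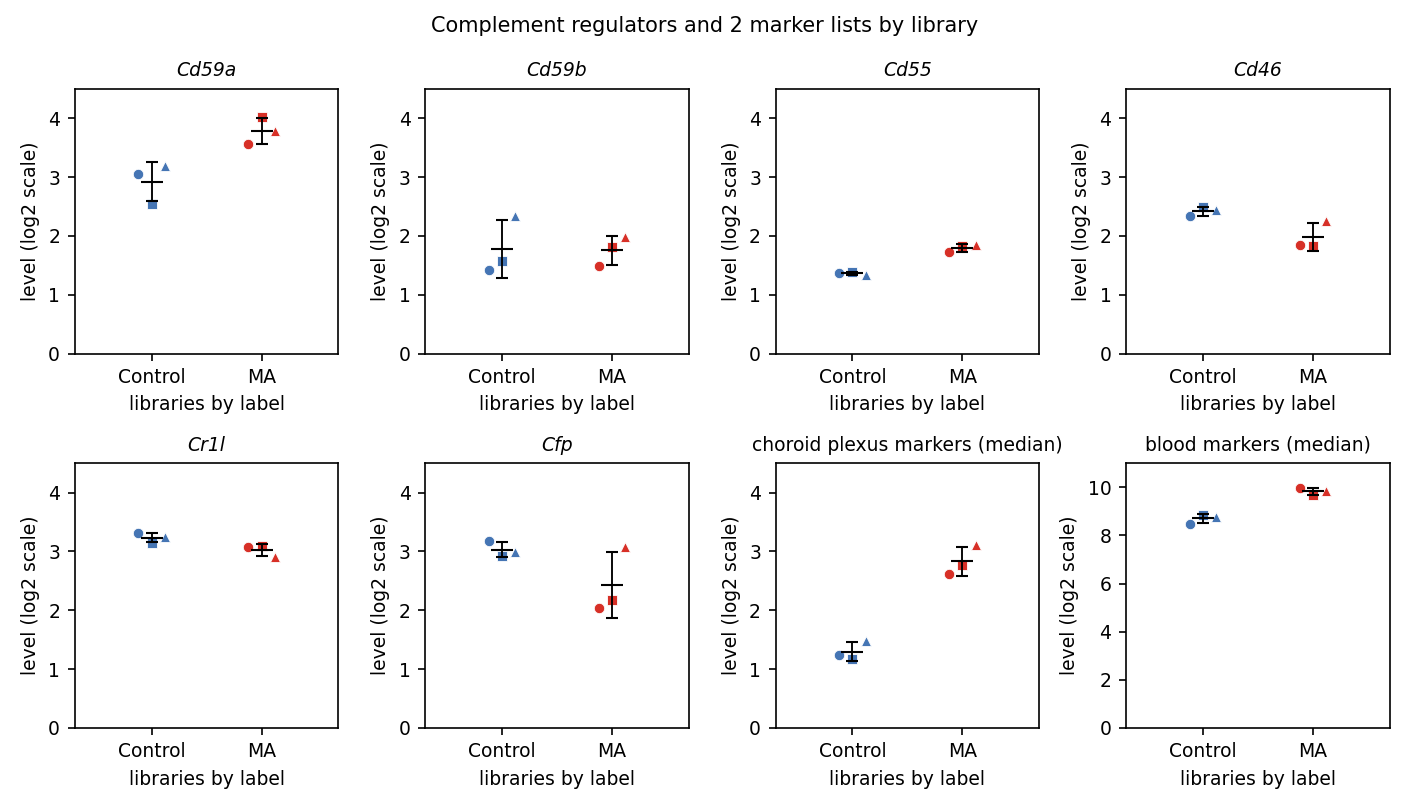
Level (log2 scale) by library of the regulators Cd59a, Cd59b, Cd55, Cd46, Cr1l and Cfp and median level of the choroid plexus and blood markers, Control in blue and MA in red, with mean ± SD and symbols for replicates (circle 1, square 2, triangle 3). Cd59a, Cd55 and both marker lists are higher in every MA library, and MA replicate 3 lies among the Control libraries for Cfp.

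Genes whose level varied most like that of a member over the 6 libraries were found by the root mean square difference of mean-centred log2 values, outside the group. They were Mccc2 (0.0196), Spryd4 and Trappc11 for the mean of the C1q genes, which itself ranged over 0.182. For C4b, which ranged over 1.12, they were Rpl15-ps2 (0.0601), Arsg and Tmem265. For Serping1, which ranged over 0.169, they were Mrps17 (0.0196), Ptprr and Snrpe. No microglia marker was among the genes named for C1q. Only the very nearest of all genes were kept, and the C1q mean ranged over only 0.182. This absence therefore cannot show whether C1q varied with the microglia markers, which was not tested.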

How the data were processed

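The authors deposited 1 table of the HIPP libraries with an Ensembl identifier, a gene symbol and 6 value columns, named as RPKM. The deposited values lie on a log2 scale as read here, with an offset of 1 inferred from the lowest value of 0. The log transform and the common distribution between libraries are not described in the sources. The paper's methods name Hisat2 as aligner and featureCounts as counter, whereas the submitters' processing notes name Bowtie 0.12.2 and the builds mm8 and mm9. The labels and the paper also name different RNA and library kits. Locations are those of GENCODE M21 (GRCm38), matched on the identifier, for location only. Whether counting used strand is not given in the sources used here.

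All 6 columns were matched to mice by name. Genes reaching 0.5 after back-transformation in 3 or more libraries were tested with limma 3.58.1 in R 4.3.3 (lmFit, eBayes with a trend, no covariate), with Benjamini-Hochberg adjustment over all tested genes. For single values, exact permutation tests (both sides) were added. The fit was tested on simulated data. The 4 immediate early genes were added after the data were seen, as a look at the labels. Genes named beside the 9 members were the 5 most abundant other complement genes, those with an unadjusted p-value under 0.05, and the 3 genes most like C1q, C4b and Serping1 over the libraries. Cd59b, C4a, Cr1l and Cfp were added after their values were seen. The members, marker lists and gene lists were chosen with earlier results of these data known. The alternatives were pseudocounts of 0.1 and 0.01, no filter, a minimum mean of 5, median centring, quantile normalization, no trend, sample quality weights, the replicate number as a block, and leaving out each library.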

Additional observations from a re-analysis of the deposited data

How the results depend on the processing

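In 14 of the 15 alternatives no member passed the adjusted threshold; with sample quality weights 1 did (Cd59a). The 26 other complement genes had 0 calls as reported, 3 with these weights (Cfp, Cd55 and Cd46) and 0 to 2 when each library was left out. Over all genes the count of 35 became 3 with no filter, 20 with a minimum mean of 5, 586 with sample quality weights, and 0 to 257 when each library was left out. Same-numbered libraries did not deviate together (correlations of -0.197, -0.242 and -0.337 across genes), and no source pairs them. With the replicate block, 15 genes passed over all genes, no member did, and the adjusted p of Cd59a was 0.521. The difference of C4b turned to -0.28 with sample quality weights and ranged from -0.25 to 0.31 when each library was left out. That of Serping1 ranged from -0.073 to 0.0071. A minimum mean of 5 left no tested perivascular macrophage or neutrophil and lymphocyte marker. Cd59a kept its direction in all 15 alternatives, from 0.67 to 1.03. The C1q difference from microglia markers stayed between 0.15 and 0.21 in the 10 alternatives that bear on it. All of them used the mean of the markers. None used their median, which overlapped between the groups, so the separation was not tested against that choice. With pseudocounts of 0.1 and 0.01, C5ar1 was at -0.52 and -0.64, C3ar1 at -0.10 and -0.13, C3 at 0.47 and 0.61 and Cd93 at -0.62 and -0.67. When each library was left out, C3 ranged from 0.0125 to 0.31 and the C1q chains from 0.028 to 0.14. The cause of these shifts was not tested. No depth is given in the table, so the precision of the low values of C3, C3ar1 and C5ar1 is unknown.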
